A study of Mus musculus with 2 samples.

Results

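Genes with alternative promoters begin their transcripts at more than 1 place, and the open chromatin at those places was described in mouse T-helper 1 cells. The genes were the protein-coding genes of the GENCODE M21 annotation that have protein-coding transcript starts over 10 kb apart. A start was called open when a region found in the lists of both replicates, with an overlap of at least 1 bp, lay within 500 bp of it. Of 21853 protein-coding genes on chromosomes 1 to 19, X and Y, 3761 (17.2%) met this rule, with 16728 of the 54361 coding starts. At those starts lay 4181 of the 84380 shared regions (4.95%), which are 29.4% of the 14230 shared regions at coding starts. 2551 of them lay at an upstream-most start, the most 5′ coding start of a gene, and 1387 at a downstream start, which is a start over 10 kb further on. The rule used the position of starts and regions, and did not use signal or sequence. Width was no criterion of its own, but a wider region comes within 500 bp of a start more readily.

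The labels name the assay as ATAC-seq, in which a transposase cuts accessible DNA, on primary T-helper 1 cells of C57BL/6NJ mice. There was 1 group with 2 biological replicates, with separate biosamples and a shared donor identifier; the sex was not collected and the age is unknown. No treated or other cell group was compared, and separate animals are not named in the labels, so the spread between replicates may be technical. The region names of the lists carry the words Th1, 96hrs, ASTARR and insert, whose meaning is not stated in the sources used here, so it is not settled whether the regions come from plain ATAC-seq libraries or from the DNA inserts of another kind of library. The signal of a region is the enrichment value that the authors' caller gave it, relative to a reference that is not stated, and it is used here only as a level within each list. In bulk cells, a region open in fewer cells and a region less open in each cell cannot be told apart. A start called not open, or closed, is one without a listed region nearby. Read depth is unknown, so values carry no counting interval, and the replicates give the error. All 6 T cell markers examined (Cd3e, Cd3d, Cd3g, Cd2, Thy1 and Cd4) and all 5 Th1 markers (Tbx21, Ifng, Il12rb2, Stat4 and Cxcr3) had an open start. Among markers of other cells, 1 of 4 for B cells (Pax5), 1 of 4 for myeloid cells (Cd14) and 0 of 4 for hepatocytes had one.

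Alternative promoters let a gene answer to different signals in different cells, and often change the first exon and so the start of the protein. Many promoters of widely used genes lie in CpG islands, stretches rich in the dinucleotide CG that tend to be nucleosome-poor, whereas promoters with little CpG are more often used in few cell types. In T cells, Runx1, Runx3, Lck and Gata3 are textbook examples of genes with a distal and a proximal promoter.

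The sequences just before the starts of 5 T cell genes are shown because they carry the contrasts that the values turn on: CpG-poor against CpG-rich starts, and closed against open ones. Each run holds the 150 bases before the annotated start, 5′ to 3′ on the strand of the gene, from the mm10 reference (GRCm38.p6), and overlaps no annotated exon. Capitals mark motif letters, searched on both strands, with matches to different motifs counted apart even where they overlap. The motifs shown are CCAAT, the CCAAT box, then GGGCGG, the GC box, then TGTGGT, the core of RUNX sites, and CCGGAAG, a core of ETS sites. Between 250 bases before and 50 after the start, CCAAT stood at 35.9% of all coding starts and GGGCGG at 43.1%. TGTGGT stood at 14.98% and CCGGAAG at 10.7%. A match describes letters only.
Runx1 upstream-most, open, chr16:92826150-92826299, minus strand: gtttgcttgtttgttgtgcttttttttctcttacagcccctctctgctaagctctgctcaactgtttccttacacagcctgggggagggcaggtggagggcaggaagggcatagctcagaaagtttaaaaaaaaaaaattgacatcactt
Runx1 downstream, open, chr16:92697329-92697478, minus strand: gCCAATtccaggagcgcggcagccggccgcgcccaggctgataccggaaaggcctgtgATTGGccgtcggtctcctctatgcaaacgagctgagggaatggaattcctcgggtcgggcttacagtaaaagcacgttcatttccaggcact
Runx3 upstream-most, open, chr4:135120502-135120651, plus strand: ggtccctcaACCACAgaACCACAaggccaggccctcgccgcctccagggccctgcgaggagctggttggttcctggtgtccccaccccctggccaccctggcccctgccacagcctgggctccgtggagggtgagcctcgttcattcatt
Runx3 downstream, open, chr4:135152346-135152495, plus strand: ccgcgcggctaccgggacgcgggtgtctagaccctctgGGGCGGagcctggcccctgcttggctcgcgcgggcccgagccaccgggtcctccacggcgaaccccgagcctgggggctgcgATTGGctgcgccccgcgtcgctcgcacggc
Lck upstream-most, open, chr4:129573642-129573791, minus strand: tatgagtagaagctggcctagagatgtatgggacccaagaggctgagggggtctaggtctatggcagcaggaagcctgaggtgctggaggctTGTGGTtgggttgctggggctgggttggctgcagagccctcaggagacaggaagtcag
Lck downstream, open, chr4:129558392-129558541, minus strand: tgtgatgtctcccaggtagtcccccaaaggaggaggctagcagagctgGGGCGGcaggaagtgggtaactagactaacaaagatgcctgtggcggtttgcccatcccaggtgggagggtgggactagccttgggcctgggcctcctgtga
Stat4 upstream-most, not open, chr1:51986998-51987147, plus strand: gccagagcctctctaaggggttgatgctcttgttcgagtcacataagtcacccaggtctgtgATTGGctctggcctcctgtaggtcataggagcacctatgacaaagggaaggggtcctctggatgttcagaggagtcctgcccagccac
Stat4 downstream, open, chr1:52008093-52008242, plus strand: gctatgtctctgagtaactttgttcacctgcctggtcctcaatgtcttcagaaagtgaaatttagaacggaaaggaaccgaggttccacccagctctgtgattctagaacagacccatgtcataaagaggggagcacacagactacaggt
Rora upstream-most, not open, chr9:68653636-68653785, plus strand: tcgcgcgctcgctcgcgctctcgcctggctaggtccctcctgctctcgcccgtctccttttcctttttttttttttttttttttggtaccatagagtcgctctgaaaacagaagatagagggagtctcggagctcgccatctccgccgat
Rora downstream, open, chr9:69289532-69289681, plus strand: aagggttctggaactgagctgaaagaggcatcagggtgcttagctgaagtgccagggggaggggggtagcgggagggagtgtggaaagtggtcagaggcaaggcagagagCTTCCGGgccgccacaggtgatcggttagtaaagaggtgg
In these windows Runx1 had 0 CG dinucleotides upstream and 12 downstream, and Runx3 had 5 and 22. Lck, with 0 and 2, and Stat4, with 1 and 2, had few in both windows. Rora was the reverse of the Runx genes, with 14 before the closed upstream-most start and 4 before the open downstream one.

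Upstream-most starts were open far more often than downstream ones. Of the 3761 upstream-most starts, 2599 (69.1%) were open, with 70.0% in replicate 1 and 69.3% in replicate 2 taken alone. Of the 7852 downstream starts, 2257 (28.7%) were open, with 29.8% and 29.2% in the replicates. Over all coding starts 58.9% were open, and over the upstream-most starts of all coding genes 59.7%, so the upstream-most starts of these genes lay above that background and their downstream starts below it. The difference of 40.4 percentage points was many times the SD between replicates, which was 0.47 points upstream and 0.43 downstream (n = 2). With 2 samples of 1 group no test of it was made. Each gene counted once, by the share of its downstream starts that were open, gave 23.3% downstream. The other starts within 10 kb of the upstream-most one were open in 77.2% of 5115 cases, many of them in the same region.

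**Figure D1:**
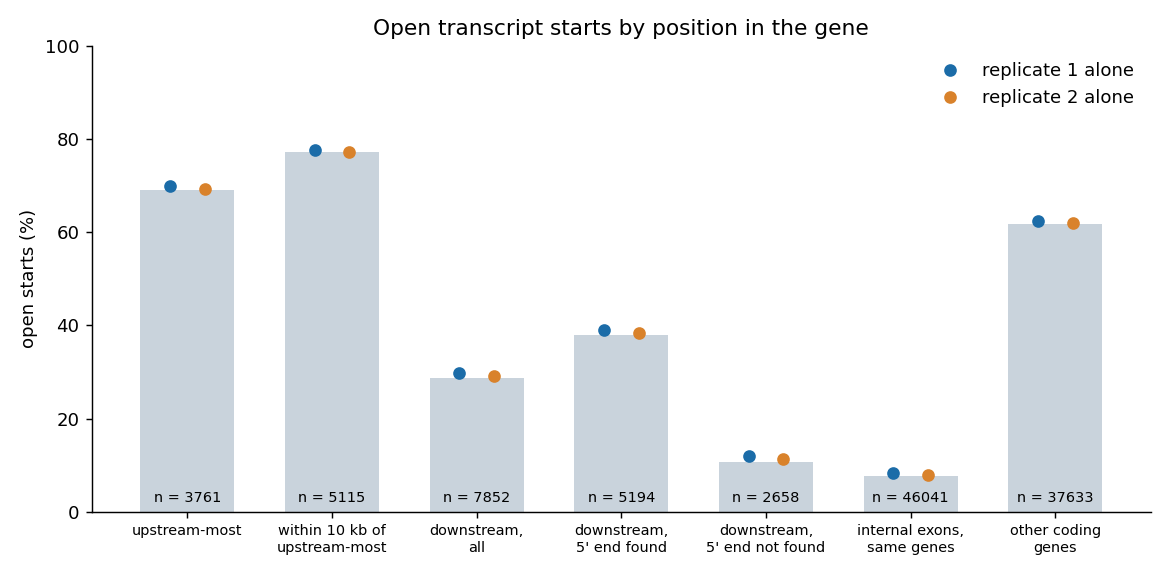
Share of transcript starts (vertical axis, %) that were open in both replicates (bars) and in each replicate alone (points), for each set of starts, with the number of starts in each bar. Upstream-most starts stood at 69.1% and downstream starts at 28.7%, with the replicates close together in each set.

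The share of open downstream starts differed with their annotation. Of these starts, 2658 came only from transcripts that the annotation tags as lacking a defined 5′ end, and 10.7% of them were open (11.9% and 11.2% by replicate). Downstream starts with a defined 5′ end were open in 38.0% of 5194 cases, below the 69.1% of the upstream-most starts of all 3761 genes. For comparison, internal exons of the same genes, over 10 kb into the gene and over 1 kb from any annotated start, had a shared region within 500 bp of their first base in 7.66% of 46041 cases. Untagged downstream starts therefore stood well above exons, and tagged ones were close to them. With the tagged transcripts left out before the genes were chosen, 2416 genes met the rule. Of the upstream-most starts of these 2416 genes 62.6% were open, and of their 5177 downstream starts 38.0%.

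The place of a downstream start on the longer transcripts divided them further. On the transcripts that begin at the upstream-most start, 4223 of the downstream starts with a defined 5′ end lay in an intron, 770 in an exon and 201 past the transcript's end. Those in an intron were open in 42.2% of cases and those in an exon in 14.3%. Those past the end were open in 40.3%. Intronic starts were CpG-rich in 20.7% of cases and exonic ones in 3.90%, so CpG content moved with this division and its part in it was not tested.

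The calls at single starts were stable between replicates. Upstream-most starts had the same call in both replicates in 98.0% of cases and downstream starts in 97.2%. Of the open upstream-most starts 93.8% lay inside the region itself, as did 80.7% of the open downstream ones. Another 313 downstream and 77 upstream-most starts had their nearest shared region between 500 and 1000 bp away. At the limit of 500 bp, the regions nearest to downstream starts of Pparg, Litaf and Ttc3 and to the upstream-most start of Mup6 lay exactly 500 bp away and counted as open. Those of Slc7a10, at 501 bp, Grb10 and Pth2r, both at 505 bp, and Mia2, at 506 bp, did not. At the limit of 10 kb, Slc38a3 and Zfp458 entered with starts spanning 10002 bp and Srek1 with 10026 bp. Fpgs at 9960 bp, Vmn1r85 at 9958 bp and Zfpm2 at 9955 bp stayed outside.

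Openness was lowest at the largest distances inside the gene. Downstream starts 10 to 20 kb from the upstream-most start were open in 31.7% of cases. Those 50 to 100 kb away were open in 30.3% and those over 200 kb away in 18.1%, so most of the fall came at the far end. Among downstream starts with a defined 5′ end the shares were 38.9%, 41.8% and 22.8%. Internal exons showed a fall of their own, from 9.39% at 10 to 20 kb to 4.43% over 200 kb. Genes whose starts lie this far apart are long ones, and neuronal genes are prominent among long genes, so distance and kind of gene are not separated in these shares.

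Genes were then classed by their upstream-most start and their starts over 10 kb downstream, leaving out the starts in between. 1781 genes (47.4%) were open at the upstream-most start and at no downstream start, 818 (21.7%) at both, 321 (8.53%) only downstream and 841 (22.4%) at neither. Replicate 1 alone gave 1760, 871, 321 and 809 genes, and replicate 2 alone 1765, 841, 323 and 832. The class of a gene rarely moved: 791 genes were open at both ends in each replicate alone and 298 only downstream in each. Many genes also had another open start within 10 kb of the upstream-most one, in the same region or in another. These were 1179 (66.2%) of the genes classed as open only upstream, 473 (57.8%) of those open at both, 38 (11.8%) of those open only downstream and 90 (10.7%) of those with neither. A gene open only upstream in this sense can therefore have more than 1 open start. In all, 30.3% of the genes had an open downstream start. Genes open at both ends had a mean of 2.95 downstream starts and those open only upstream 1.62. Those open only downstream had 3.18 and those with neither 1.83. The class of a gene thus moved with the number of its downstream starts, which differs between the gene lists below.

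CpG content, which the rule did not use, separated open from closed starts. A start was called CpG-rich when the 500 bases on either side had a GC share of at least 50% and an observed over expected CpG ratio of at least 0.6. By this measure 57.4% of upstream-most starts were CpG-rich and 12.1% of downstream starts, against 42.7% of all coding starts. CpG-rich starts were open in 92.4% of cases upstream and in 87.6% downstream, a gap of a few points. The other starts were open in 37.7% of cases upstream, and in 27.1% downstream among those with a defined 5′ end. Taken as whole classes, CpG-rich starts thus differed less between the ends of the gene than the others did. Within each class the gap varied with the CpG ratio, as the next values show.

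Openness rose with the CpG ratio in both sets of starts. At a ratio of 0.6 to 0.7, 83.5% of 460 upstream-most starts and 83.1% of 254 downstream starts with a defined 5′ end were open. At 0.2 to 0.3 the shares were 22.5% of 320 and 22.3% of 1243. At other ratios the sets were apart, and the upstream-most starts were ahead with 38.6% against 28.8% at 0.3 to 0.4, 55.6% against 39.5% at 0.4 to 0.5, and 95.0% against 84.4% at 0.8 to 0.9. Below 0.2 the downstream starts were ahead, with 16.4% against 13.2%. Internal exons stayed low over the same span, with 7.61% at 0.2 to 0.3 and 7.16% at 0.4 to 0.5. Downstream starts without a defined 5′ end resembled exons up to a ratio of 0.5, with 10.7% open at 0.4 to 0.5. Only a few exons reached the high ratios, where 48.5% of 33 exons at 0.7 to 0.8 had a region.

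**Figure D2:**
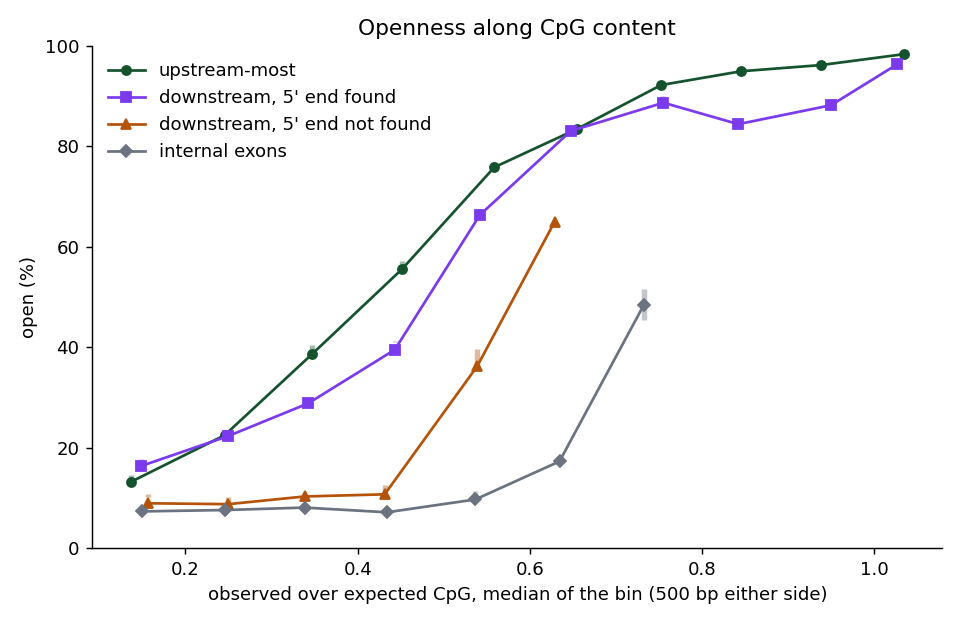
Share open in both replicates (vertical axis, %) against the median observed over expected CpG ratio of each bin (horizontal axis), for upstream-most starts, downstream starts with and without a defined 5′ end, and internal exons; bins with at least 20 members are drawn and vertical bars join the replicates taken alone. Upstream-most and downstream starts with a defined 5′ end both rise, and meet at 22.5% and 22.3% at 0.2 to 0.3 and at 83.5% and 83.1% at 0.6 to 0.7, with the upstream-most starts higher between these (55.6% and 39.5% at 0.4 to 0.5) and above them (95.0% and 84.4% at 0.8 to 0.9).

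Motifs near the open starts differed between the ends of the gene, in part also among starts of like CpG content. GGGCGG, the GC box, stood within 250 bases before to 50 after 66.8% of open upstream-most starts and 46.5% of open downstream starts with a defined 5′ end, against 63.5% of all open coding starts. Among CpG-rich open starts the shares were level, at 75.3% and 75.1%, but among the other open starts they were 38.9% (235 of 604) upstream and 26.4% (306 of 1158) downstream. CCGGAAG, a core of ETS factor sites, was present at 13.9% and 7.20%, within CpG-rich starts at 15.2% and 11.2%, and within the others at 9.44% and 4.404%. CCAAT stood at 35.4% and 25.2% of the CpG-rich open starts and at 35.3% and 32.7% of the others. TGACTCA, the AP-1 site, went the other way, at 2.58% of open upstream-most and 6.28% of open downstream starts. This difference lay among starts that were not CpG-rich, with 25 of 604 (4.14%) upstream and 107 of 1158 (9.24%) downstream, while the CpG-rich ones were level at 2.11% and 2.09%. Over all open coding starts that were not CpG-rich, 6.01% held it. TGTGGT, the RUNX core, stood at 18.0% and 18.2% of the open starts that were not CpG-rich, and at 17.1% of all such coding starts. The rest of the 9 motifs searched had mixed orders, given here upstream then downstream. TATAAA stood at 4.31% and 2.70% of the CpG-rich open starts and at 9.27% and 11.2% of the others. CACGTG stood at 11.3% and 8.34%, and at 6.46% and 5.27%. GCATGCGC stood at 5.81% and 6.50%, and at 1.99% and 0.950%. AAGATGGC stood at 4.81% and 2.09%, and at 1.32% and 1.73%. Neighbouring starts of a gene share sequence, so these starts are not independent.

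The regions at upstream-most starts were also stronger and wider than those at downstream starts. Their median signal was 11.1 in replicate 1 and 10.8 in replicate 2, against 7.74 and 7.56 at downstream starts. Regions at the starts of the other coding genes had 10.7 and 10.4, and regions over 1 kb from any annotated start 6.37 and 6.15. The downstream regions thus lay between promoters of other genes and regions away from starts. The median width of the joined regions followed the same order, with 1432 bp upstream, 1311 bp at other coding genes, 1076 bp downstream and 661 bp away from starts. Wider regions reach a start more readily and lie over 1 kb from every start less readily, so these sets were not taken free of width. Over 2000 bp wide were 15.2% of the upstream and 8.07% of the downstream regions. Only 4 regions served as an upstream-most start of 1 gene and a downstream start of another.

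**Figure D3:**
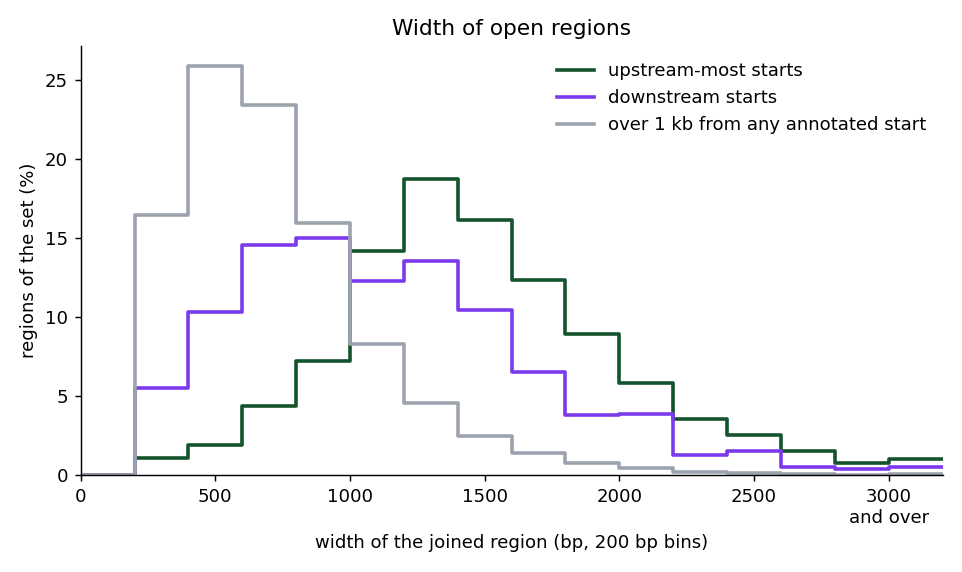
Distribution of region width (horizontal axis, bp in bins of 200 bp, the last bin holding all wider regions) as the share of each set (vertical axis, %), for regions at upstream-most starts, at downstream starts and over 1 kb from any annotated start. The downstream regions, with a median of 1076 bp, lie between the other sets, with medians of 1432 and 661 bp.

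Here too CpG content moved with the values. At CpG-rich starts the median signal was 11.5 and 11.3 upstream, and 9.92 and 9.84 downstream. At the other starts it was 9.16 and 8.97 upstream, and 7.20 and 7.05 downstream. The median width was 1502 bp at CpG-rich upstream-most starts and 1427 bp at CpG-rich downstream starts. At the others it was 1150 and 920 bp. Over these regions, pooled across different genes, width was nearly level between CpG-rich starts, and signal stayed higher upstream in both kinds.

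Within the 818 genes open at both ends, the upstream region was usually but not always the stronger. It had the higher signal in both replicates in 482 genes (58.9%), the downstream regions in 282 (34.5%), and the replicates disagreed in 54. Over 1.5-fold higher in both replicates were the upstream regions of 259 genes and the downstream regions of 120. The median log2 ratio of downstream to upstream signal was −0.25 in replicate 1 and −0.27 in replicate 2, with an SD of 0.011 between these medians, and the quartiles of the ratio over genes were −0.86 and 0.29. For a single gene the median SD of the log2 ratio between replicates was 0.092, so the differences among genes were much wider than the replicate error. The upstream region was the wider one in 572 genes (69.9%), and the median difference in width was −426 bp (downstream minus upstream).

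The pairs of CpG states ordered these differences. Where both ends were CpG-rich (142 genes), the median log2 ratio was −0.013 and −0.049 in the replicates. Upstream signal was higher in both replicates in 69 of these 142 genes and downstream signal in 63. Their median difference in width was −134 bp. Signal was thus nearly level within these genes, unlike in the pooled regions above. With a CpG-rich upstream end and another kind downstream (444 genes) the median log2 ratio was −0.48 and −0.50. With the reverse arrangement (100 genes) it was 0.19 and 0.22, and the downstream region was then wider by a median of 365 bp. Where neither end was CpG-rich (132 genes) it was −0.10 in both. The CpG-rich end, wherever it lay, thus had the higher median signal and the wider region.

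**Figure D4:**
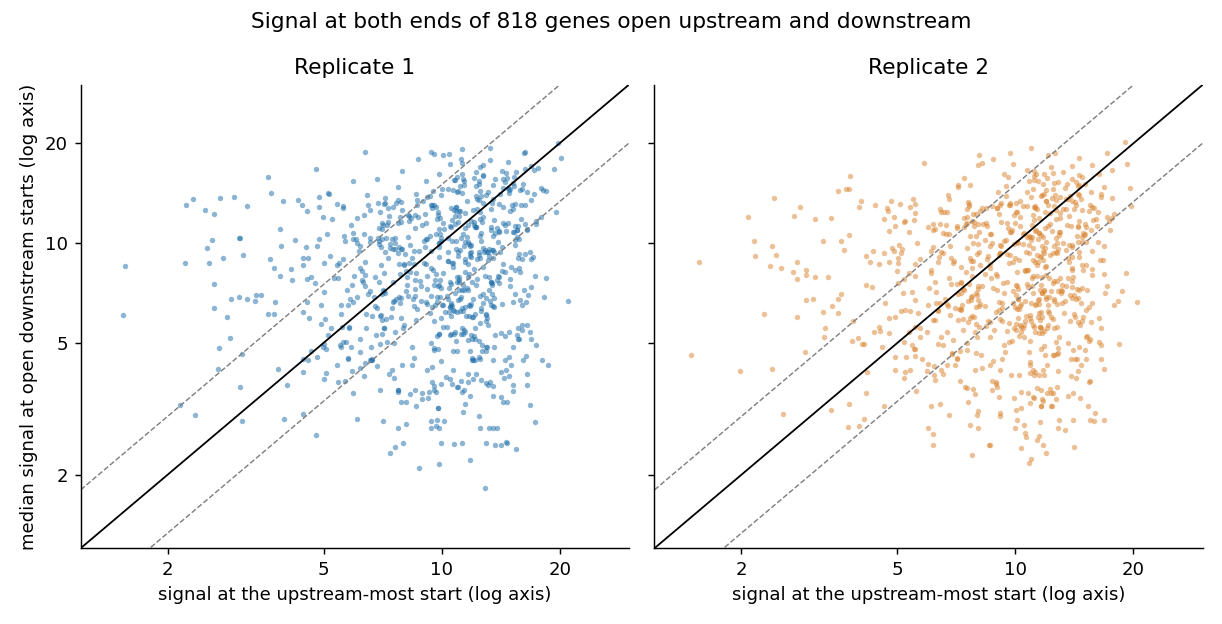
Signal at the upstream-most start (horizontal axis) against the median signal at the open downstream starts (vertical axis) of the 818 genes open at both, 1 point per gene, both axes logarithmic, replicate 1 and replicate 2 in separate panels; the solid line marks equal signal and the dashed lines a 1.5-fold difference. More points lie below the line (482 genes in both replicates) than above it (282).

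The downstream starts often give another protein. Of the 5173 downstream starts with start codons annotated for both ends, 2996 (57.9%) use another start codon than the transcripts from the upstream-most start. They were open in 40.4% of cases, against 34.8% of the 2177 that keep the start codon. In the replicates alone the values were 41.5% and 41.1% against 35.8% and 34.9%.

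Among transcription factors of T cells, promoters open at both ends were the most frequent pattern. Of 74 genes listed, 28 met the rule, of which 14 were open at both ends, 10 upstream only, 3 downstream only and 1, Vdr, the vitamin D receptor, at neither. Their downstream starts were open in 47 of 94 cases (50%), resting on 23 regions. Over all genes with alternative starts the shares were 21.7% open at both and 28.7% of 7852 downstream starts open. Among downstream starts with a defined 5′ end, 45 of 84 (53.6%) were open in this list, against 38.0% over all genes. The 28 genes also had more downstream starts per gene than the 3761 genes as a whole. The part of this in the count open at both ends was not tested. CpG-rich starts made up 25.5% of the downstream starts of this list, above the 12.1% over all genes, so CpG content moved with the list and its part was not tested. The list was chosen for this cell type, so its counts are a description.

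The 3 Runx genes, which encode the DNA-binding subunits of core binding factor, showed different balances between the distal promoter, P1, and the proximal promoter, P2. Runx1, needed for blood stem cells and T cell development, had signals of 4.54 and 4.99 in replicates 1 and 2 at its upstream-most start on chromosome 16. At the CpG-rich start 128.8 kb downstream, in an intron of the longer transcripts, it had 7.78 and 8.22, higher in both replicates. Runx2, known for bone formation, had 3.18 and 3.53 upstream and 6.78 and 6.79 in a region at CpG-rich starts 78.1 to 79.4 kb downstream, where the antisense gene Runx2os1 also starts. Runx3, which acts with T-bet in Th1 cells, had the opposite order. Its upstream region, 2495 bp wide, had signals of 10.98 and 10.54, and the region at the CpG-rich start 31.8 kb downstream 6.19 and 5.67. Gm16225 also has a start within 1 kb of the Runx3 upstream-most start. In Runx1 and Runx2 the CpG-rich proximal promoter was thus the stronger, and in Runx3 the distal one, which is not CpG-rich and whose window is printed above with ACCACA, the RUNX core on the other strand, at 2 places.

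Other factors of helper cell fate split in the same way. Gata3, the Th2 master regulator, had 12.7 and 12.0 upstream, where the region ends 1 bp from the annotated start and 9230102O04Rik also starts. Its CpG-rich downstream start, 11.4 kb away, had 6.61 and 6.87 in a wider region of 1869 bp. The −log10 q of the Gata3 regions, 241.9 and 240.9 in replicate 1, were nearly equal, and in replicate 2 they were 191.4 and 218.1, so the order of the ends depended on the measure used. Nfatc2, a factor activated by calcium signals from the T cell receptor, had 4.13 and 3.33 upstream and 8.34 and 7.91 at starts 11.3 kb downstream. Nr4a1, an immediate early gene of receptor signalling, had 5.63 and 4.89 upstream and 10.5 and 9.45 at 12.6 kb. Elf1, an ETS factor, went the other way, with 10.1 and 10.1 upstream and 6.52 and 5.94 at 34.5 kb. Its upstream-most start lies within 1 kb of a start of Wbp4. Stat5b, which carries cytokine signals, had 5.42 and 5.24 upstream and 4.30 and 4.08 at 28.2 kb.

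In 3 factors the upstream-most start was closed and a start over 10 kb downstream was open. Stat4, the factor that carries the IL-12 signal in Th1 cells, was not open at its upstream-most start and had 4.91 and 4.47 at the start 21.1 kb downstream. Neither of these Stat4 starts was CpG-rich. Rora, a nuclear receptor, was not open at a CpG-rich start and had 11.8 and 12.0 at another CpG-rich start 635.9 kb away, in a region of 2094 bp. The upstream-most start of Rora is thus among the few CpG-rich ones outside the 92.4% that were open. Tcf4, an E protein, was the remaining gene, with 7 of 25 downstream starts open. It was also open near its 5′ end, with 11.2 and 10.7 in a region at CpG-rich starts 0.8 to 1.2 kb from the closed upstream-most one.

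The regulators Foxp1 and Satb1 had several open starts within 1 gene. Foxp1, which holds T cells quiescent, was open upstream with 5.75 and 5.50 and at 8 of 12 downstream starts. The 4 open downstream regions of Foxp1 had signals between 3.06 and 6.45 and lay 85.8 to 493.2 kb away. Satb1, an organiser of chromatin in thymocytes, had 5.45 and 5.59 upstream, 5.28 and 5.21 at starts 6.7 kb away, and 3.80 and 3.59 in a region 2499 bp wide that serves starts at 18.3 and 20.6 kb. Both genes thus had 3 or more separate open regions at coding starts.

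Among the genes open only upstream was Bach2, a repressor of effector differentiation, with 8.07 and 7.78 and a closed start 178.6 kb downstream. Cd5, a surface receptor that dampens T cell receptor signals, had 5.97 and 5.79 upstream, and its downstream start at 16.9 kb was within 500 bp of a region in replicate 1 only. That Cd5 start comes only from a transcript without a defined 5′ end.

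**Figure D5:**
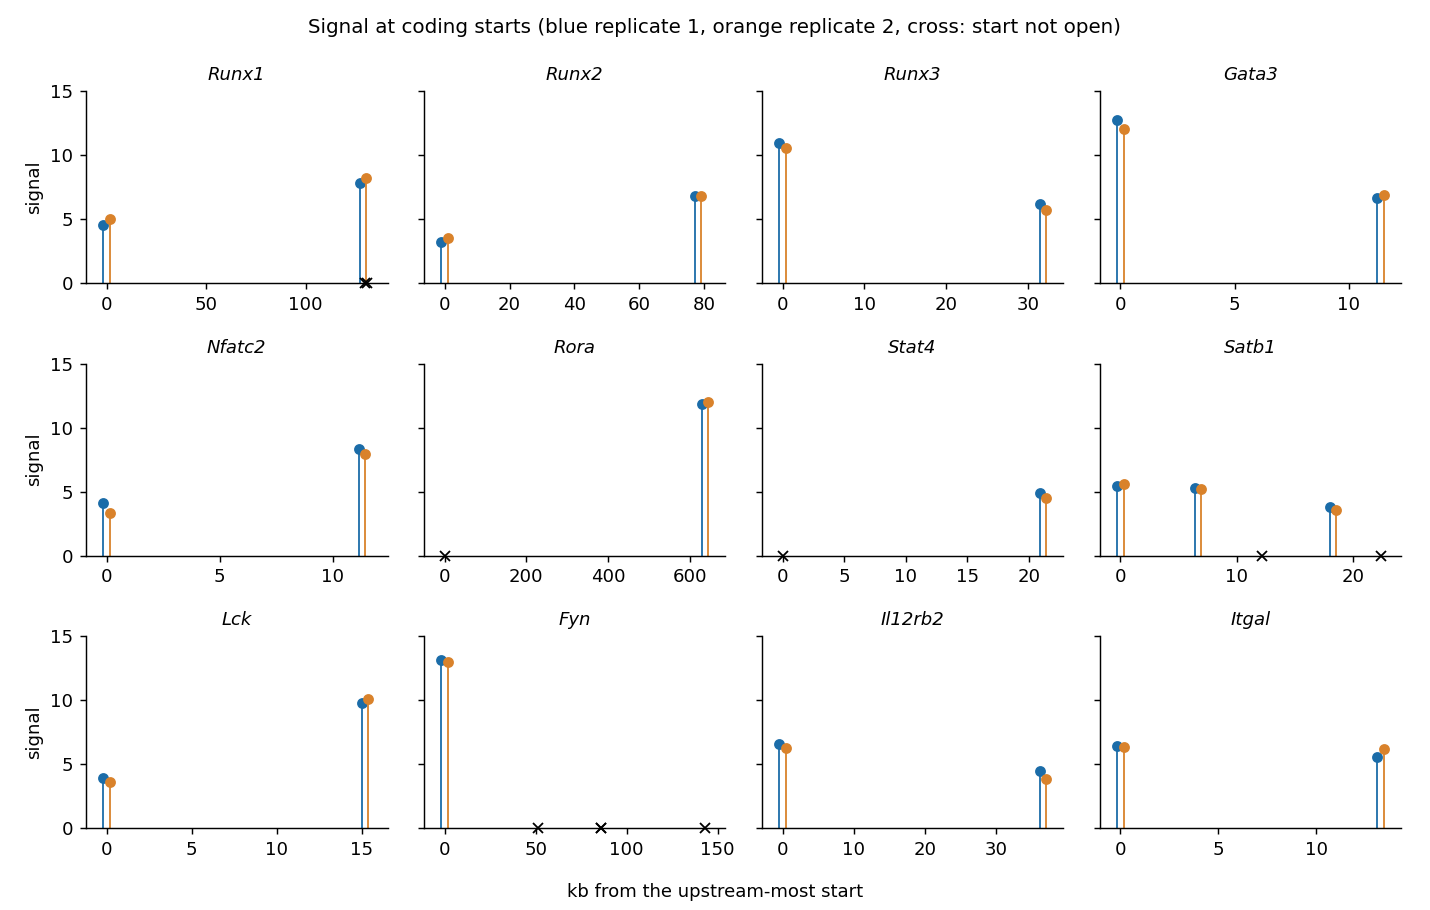
Signal of the open region (vertical axis) at each coding start against its distance from the upstream-most start (horizontal axis, kb, a scale of its own for each gene) for 12 T cell genes, replicate 1 in blue and replicate 2 in orange, with 1 pair of points per region at its first start and crosses for starts that were not open. Runx1, Runx2, Nfatc2 and Lck rise from the left to the right end, Runx3, Gata3 and Il12rb2 fall, and in Stat4 and Rora only the right end is open.

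Genes of T cell receptor signalling and costimulation were open at every upstream-most start. All 20 of the 58 listed genes that met the rule were open there, against 69.1% over all genes with alternative starts, and 11 of them (55.0%) also downstream, against 21.7%. Of their downstream starts 21 of 53 (39.6%) were open in both lists, against 28.7%. In replicate 1 alone 47.2% of these downstream starts were open, so the share depended more on the replicate than over all genes. Among the downstream starts of this list with a defined 5′ end, 20 of 46 (43.5%) were open, against 38.0% over all genes. The 20 genes also had more downstream starts per gene than the 3761 genes as a whole. The part of this number in the count open at both ends was not tested. Lck, the kinase that starts T cell receptor signalling, had 3.89 and 3.59 at the distal start and 9.81 and 10.1 at the proximal starts 15.2 and 15.3 kb downstream, where Mir8119 also starts. The values of the ends of Lck did not overlap between replicates, and neither end was CpG-rich. Csk, the kinase that restrains Lck, had 2.63 and 2.70 upstream and 7.51 and 8.16 at 19.6 kb. A region at CpG-rich Csk starts 8 to 8.5 kb from the upstream-most one had 5.00 and 5.58. Fyn, the related kinase, had a single strong region at its upstream end with 13.2 and 13.0, and 0 of 4 downstream starts, 51.2 to 142.9 kb away, were open. Pik3r1, a regulatory subunit of phosphoinositide 3-kinase, had 11.5 and 11.6 upstream and 5.38 and 5.60 at 73.6 kb, both CpG-rich. Dgkz, which ends diacylglycerol signals, had similar levels of 8.15 and 7.41 upstream, 7.58 and 7.75 at 12.2 kb, and 7.39 and 6.69 at 25.4 kb.

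The 6 cytokine receptor genes with alternative starts were all open upstream, and 3 of them also downstream, where the shares over all genes were 69.1% upstream and 21.7% at both. Il12rb2, the inducible chain of the IL-12 receptor that marks Th1 cells, had 6.58 and 6.25 upstream and 4.43 and 3.86 in a narrow region of 512 bp at 36.5 kb. Il6st, the shared signalling chain of the IL-6 family, had 10.9 and 10.9 upstream and 5.05 and 4.39 at 10.9 kb. Ifnar2, a chain of the type I interferon receptor, had 12.8 and 12.7 upstream and 13.2 and 10.4 at 15 kb. The replicates disagreed on the order in Ifnar2, and its downstream start was within 500 bp of the region of replicate 1 but not of that of replicate 2. In Il12rb2 and Il6st the upstream end was higher in both replicates. No downstream start in this list was CpG-rich.

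Adhesion and cytoskeletal genes of lymphocytes, long genes in many cases, included several with the stronger region downstream. Of 13 that met the rule, 7 were open at both ends, 5 only upstream and 1, Macf1, only downstream. Over all genes 21.7% were open at both and 47.4% only upstream. The 13 genes of the adhesion list had 67 downstream starts, more per gene than the 7852 starts of all 3761 genes. The downstream starts of the adhesion list were open in 28.4% of cases, near the 28.7% over all genes. The excess of genes open at both ends was thus not seen per start. Elmo1, a partner of Dock proteins in cell migration, had 5.66 and 6.09 upstream and 13.7 and 12.7 at 20.9 kb. Dock10, a guanine exchange factor, had 4.51 and 4.84 upstream and 9.75 and 9.63 at 93.1 kb. Sptbn1, a spectrin, had 8.23 and 8.72 upstream and 12.1 and 12.9 at 69.9 kb. In these 3 the downstream end was higher in both replicates. Itgal, the alpha chain of LFA-1, had 6.40 and 6.36 upstream and 5.55 and 6.22 at 13.3 kb. Macf1, a microtubule-actin linker, was closed at its upstream-most start and had 11.4 and 11.7 at a CpG-rich start 19.6 kb downstream. Ank3, a membrane adaptor, was open upstream with 4.29 and 4.30, and 0 of its 23 downstream starts were open.

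Chromatin regulators were mostly open at the upstream-most start and at no start over 10 kb downstream. Of 31 chromatin regulators 20 were open only upstream, 8 at both ends, 2 only downstream and 1 at neither. The upstream-most start was thus open in 90.3% of them, against 69.1% over all genes, and both ends in 25.8%, near the 21.7% over all genes. Of their 106 downstream starts 34 (32.1%) were open, against 28.7% over all genes, and 16 of these 34 belonged to Smarca2. Many of the 106 lacked a defined 5′ end. Among the 55 with one, 32 (58.2%) were open, against 38.0% over all genes. The 31 genes also had more downstream starts per gene than the 3761 genes as a whole. Smarca4, an ATPase of the BAF remodelling complex, was the strongest of those open only upstream, with 13.3 and 14.1. Tet1 and Tet3, which oxidise methylcytosine, were the pair open only downstream, Tet3 with 7.12 and 7.23 at 17.4 kb, where B230319C09Rik also starts. Tet3 was also open at a start 2.7 kb from the upstream-most one, with 9.68 and 9.44.

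Of the neuronal genes, most were closed at the upstream-most start. Of 42 that met the rule, 12 (28.6%) were open upstream, against 69.1% over all genes, while 45.2% had an open downstream start, against 30.3%. 12 were open only downstream, 7 at both, 5 only upstream and 18 at neither. Of their 187 downstream starts 26.2% were open, close to the 28.7% of 7852 over all genes. The 42 genes thus had more downstream starts per gene than the 3761 genes as a whole. The part of this number in the count by gene was not tested. CpG-rich starts made up 27.8% of these downstream starts, against 12.1% over all genes. CpG-rich upstream-most starts of neuronal genes were open in 9 of 16 cases (56.3%), below the 92.4% over all genes. CpG-rich downstream starts were open in 24 of 52 (46.2%), below the 87.6% over all genes. The other starts were open in 3 of 26 cases (11.5%) upstream, against 37.7%, and in 25 of 135 (18.5%) downstream, against 20.6%. Of the 147 downstream starts with a defined 5′ end 30.6% were open, against 38.0% over all genes. Dclk1, a kinase on microtubules, was the strongest of those open only downstream, with 16.0 and 15.2 in a region of 635 bp at starts 219.4 to 219.6 kb away. Pde4d, a phosphodiesterase with many isoforms, was closed upstream and open at 8 of 11 downstream starts, with signals from 3.47 to 13.4.

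The largest ratios between the ends joined weak and strong regions. The 5 genes with the highest ratio of downstream to upstream signal were Arid5b, Ostm1, Ralgds, Sirt1 and Tbc1d1. Sirt1, a deacetylase, had 2.95 and 2.42 upstream and 13.8 and 13.7 at a CpG-rich start 42.7 kb downstream. Tbc1d1, a Rab GTPase regulator, had 2.33 and 2.07 upstream and 13.6 and 12.0 at 74.1 kb. Arid5b, a cofactor of histone demethylation, had 1.56 and 1.56 in a region of 234 bp upstream and 8.52 and 8.76 at 142.1 kb. The upstream-most start of Sirt1 lies within 1 kb of a start of Dnajc12, and that of Ostm1 within 1 kb of Nr2e1. In Ostm1 the upstream call held in replicate 2 alone and not in replicate 1 alone. Most of these upstream regions were thus near the weak end of the lists.

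At the other end stood Dlg1, Hsf1, Prdm8, Rpgrip1l and Usp2. Dlg1, a scaffold at cell contacts, had 15.5 and 15.9 upstream and 2.39 and 2.90 at 90.9 kb. Usp2, a deubiquitinase, had 16.8 and 16.8 upstream and 3.24 and 2.93 at 17.9 kb although both ends were CpG-rich. Hsf1, the heat shock factor, had 14.6 and 14.1 upstream, where Bop1 also starts, and between 1.95 and 2.91 at its downstream starts, which lack a defined 5′ end. The weaker ends of these genes had −log10 q values as low as 2.39 for Dlg1 and 1.61 for Prdm8 in replicate 1.

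The strongest regions at genes open only upstream were those of Zfp951 (25.2 and 21.04), Tnfrsf22 (20.9 and 19.5), Wdr19 (19.8 and 19.3), Fam228b (19.7 and 18.7) and Taf1a (19.2 and 19.3). The strongest downstream regions at genes with a closed upstream-most start were those of Lipo3 (24.2 and 23.0 at 171.6 kb), Scoc (19.8 and 18.97 at 15.8 kb), 4930519G04Rik (17.7 and 18.6 at 11.8 kb), Egf (17.6 and 17.7 at 30.2 kb) and Syt11 (17.5 and 17.5 at 12.8 kb). These are the extremes of each class, and the classes as a whole were apart, with a median signal of 11.6 and 11.2 at the upstream-most starts of genes open only upstream and 7.72 and 7.64 at the downstream starts of genes open only downstream. Syt11 was also open at a start 2.6 kb from the upstream-most one, with 13.0 and 14.0, and its start at 12.8 kb lacks a defined 5′ end. The upstream-most start of Fam228b lies within 1 kb of a start of Pfn4. The downstream start of Fam228b, at 21 kb, lacks a defined 5′ end. Zfp951 and Lipo3 belong to families of similar genes, and how reads shared between copies were placed is not stated. The open starts of Scoc are CpG-rich, and those of Egf, Lipo3 and Syt11 are not. The 5 genes with the most distinct open regions at their starts were Abr, Arap1, Foxp1, Pde4d and Plec.

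A start shared with another gene makes an open call ambiguous. A start of another annotated gene lay within 1 kb of 24.6% of upstream-most and 6.56% of downstream starts. Upstream-most starts with such a neighbour were open in 85.1% of cases and those without in 63.9%. For downstream starts the shares were 56.1% and 26.8%. The gap between the ends was present in both kinds.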

How the data were processed

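The authors deposited 1 list of open regions per replicate on mm10, called from each replicate alone, per the file headers and labels. Its columns hold a display score, a signal value, −log10 p and −log10 q, and the summit offset, as deposited by the authors (smallest −log10 q of 1.01 and 1.00). Which aligner and caller made them is not stated. Replicates 1 and 2 held 98875 and 91488 regions, of which 89 and 85 off the assembled chromosomes were left out. Overlapping regions of both lists were joined, each keeping the strongest signal per replicate, and replicate values use that list's region.

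Starts, tags and start codons came from GENCODE M21, and sequence from GRCm38.p6, whose chromosome names and lengths fit mm10 (0 regions ran past a chromosome end). Where a gene had several open downstream regions, their median was taken. Medians and shares were computed with Python 3.11.15, NumPy 2.4.6 and pandas 2.3.3, figures with matplotlib 3.10.9. With 1 group, no test was made. The code was tested on made-up regions with known answers. Genes were named by rule: members of the T cell, cytokine receptor and adhesion lists, the 5 highest and 5 lowest ratios, the 5 strongest of each single-ended class, the 5 with most regions, the strongest and weakest of each class in the chromatin and neuronal lists, and genes at the limits. Some genes that the rule names are not reported here. Members, lists and rules were chosen with earlier results of these data known. The alternatives cover the window, overlap, q, summit, start definitions and single replicates.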

Additional observations from a re-analysis of the deposited data

How the results depend on the processing

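The difference in open share, the log2 ratio and the width difference did not change sign under the alternatives run. Counts of genes cannot change sign. In all, 43 alternative values stayed within the SD between replicates or, for counts, within 1.5 times the value reported. Most of these 43 were counts, under that wider limit. Every alternative value of the difference in open share moved beyond its SD between replicates, which was 0.038 points. The other 38 values moved beyond these limits, and the spread between replicates was small. The difference in open share between upstream-most and downstream starts, 40.4 points as reported, was 41.4 with a window of 250 bp, 38.4 with 1000 bp, 40.6 with 50% reciprocal overlap, 40.5 with a −log10 q of at least 5, 37.2 with the summit near the start, 42.2 with starts 20 kb apart, 46.2 with starts within 1 kb joined, 35.8 without starts near another gene's start and 47.97 with the downstream-most start alone. It was 24.6 without transcripts lacking a defined 5′ end and 21.2 with every other start taken as downstream. Weighting genes equally, chosen after seeing the data, gave 45.9. Leaving out a replicate gave 40.1 and 40.1.

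Genes open at both ends, 818, became 531 by summits and 1997 with every other start as downstream. Genes open upstream only, 1781, became 866 without transcripts lacking a defined 5′ end and 602 with every other start as downstream. In the last setting most pairs of starts share a region, so the median log2 ratio and the width difference were 0 and 0 bp by construction.

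The median log2 ratio, −0.28 over the mean of both replicates, was −0.30 with 1000 bp, −0.26 with reciprocal overlap, −0.24 with the higher q limit, −0.21 without transcripts lacking a defined 5′ end, −0.29 with the downstream-most start alone, −0.31 with either replicate left out, and −0.99 for −log10 q in place of signal. The width difference, −426 bp, was −346 with 250 bp, −483 with 1000 bp, −408 with the higher q limit, −334 by summits, −319 without transcripts lacking a defined 5′ end, −466 with 20 kb, −381 without starts near another gene's start, −476 with the downstream-most start alone, and −449 and −448 bp with a replicate left out. Depth limits these values in a way that cannot be given, since read numbers were not used here: a weak region can be missed, and a start not called open is not shown to be closed.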
